A study of Homo sapiens with 4 samples.

Results

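Olfactory receptor genes of chromosome 11 were followed as a gene set that is known for its use in the nose and is mostly held silent in other tissues. The members are the protein-coding genes of that chromosome whose symbol is OR followed by a family number, 1 or 2 letters and a last number, as in OR52W1. The rule gave 171 genes. OR8U8, OR8U9 and OR9G9 have coordinates on alternate scaffolds and were not measured, which left 168 members among 19884 protein-coding genes with coordinates on the main chromosomes. H3K27Ac, the acetylation of histone H3 that marks active promoters and enhancers, was profiled by ChIPmentation in MOLM13 cells, a human AML line with MLL1-r. In this assay the Tn5 transposase adds sequencing adapters to immunoprecipitated chromatin. There was 1 library of control cells, labelled with no treatment although the protocol names DMSO, and 1 library of cells exposed for 16 h to 500 nM SNDX-50469, a Menin inhibitor (MI). Each library has 1 deposited list of broad peaks, so no difference between the conditions has a replicate check and no p-value is given. The 2 input libraries were not analysed here.

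Olfactory receptors are G protein-coupled receptors that bind odorants on the cilia of sensory neurons in the nose. Each neuron uses 1 receptor allele out of the whole repertoire, and the other receptor genes are packed in heterochromatin. The coding sequence of a receptor gene usually lies in a single exon, and the genes stand in clusters that grew by duplication. Class I genes (families 51 to 56) resemble the receptors of fish, and class II genes make up all other families. In sensory neurons LHX2, a LIM homeodomain factor, its partner LDB1 and the EBF factors act at receptor promoters and enhancers. In the annotation 74 of 168 members spanned at most 1 kb against 16 of 1129 other protein-coding genes of chromosome 11. The members ranged from 912 to 165335 bp with a median of 1103 bp, and 72 of them lay so close to another member that the windows used below overlap.

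A few promoters are shown first, because the 2 members with most H3K27Ac are also the only ones whose matched upstream sequence lies wholly under a peak. At OR5B21, the one other member touched there, 20 of the 250 bases lay under a control peak. RefSeq promoter entries (build GRCh38.p14) were matched for 135 of 168 members. The upstream 250 bases are printed 5′ to 3′ on the gene's strand, with the motifs TAATTA and TATAAA in capitals on either strand, and overlapping matches run together. OR52W1 (chr11:6198974-6199223, plus strand) lay wholly under a peak in both lists, and OR52K2 (chr11:4449045-4449294, plus strand) lay wholly under a control peak and under none after SNDX-50469. OR51V1 (chr11:5200683-5200932, minus strand), the member nearest to the beta-globin genes, and OR4C46 (chr11:54603999-54604248, minus strand), the member farthest from any peak, are shown as members with no peak.
OR52W1: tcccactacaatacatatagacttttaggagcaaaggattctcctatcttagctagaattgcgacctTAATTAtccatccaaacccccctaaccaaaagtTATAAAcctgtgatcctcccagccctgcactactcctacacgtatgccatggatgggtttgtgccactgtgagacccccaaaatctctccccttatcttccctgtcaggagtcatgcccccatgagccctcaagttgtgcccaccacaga
OR52K2: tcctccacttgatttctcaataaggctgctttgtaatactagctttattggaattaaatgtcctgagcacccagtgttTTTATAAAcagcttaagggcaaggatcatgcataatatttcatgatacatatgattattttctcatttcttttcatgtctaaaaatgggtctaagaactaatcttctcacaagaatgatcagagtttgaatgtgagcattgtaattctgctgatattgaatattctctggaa
OR51V1: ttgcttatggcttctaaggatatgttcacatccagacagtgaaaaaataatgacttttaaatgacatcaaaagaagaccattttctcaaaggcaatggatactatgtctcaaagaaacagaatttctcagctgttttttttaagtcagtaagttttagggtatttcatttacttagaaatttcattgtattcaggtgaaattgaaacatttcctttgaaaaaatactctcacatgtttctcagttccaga
OR4C46: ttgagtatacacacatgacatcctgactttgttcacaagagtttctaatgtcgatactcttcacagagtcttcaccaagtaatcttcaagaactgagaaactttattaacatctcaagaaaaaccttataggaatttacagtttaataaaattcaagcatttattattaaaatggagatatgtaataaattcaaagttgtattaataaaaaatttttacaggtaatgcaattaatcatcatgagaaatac

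The receptor promoters, as placed by the annotation, were poor in CpG and in GC. Since 74 of 168 members are annotated with a span of at most 1 kb, the annotated start may be that of the coding sequence. Whether transcription begins there was not tested. Over windows of 300 bases, the members had a median of 1 CpG and 37% GC, against 22 CpG and 62.0% GC in 818 promoters of other chromosome 11 genes. No CpG at all was present in 36 of 135 members (26.7%), and 10 or more were present in 1 member (0.741%) against 71.0% of the other chromosome 11 promoters. The median ratio of observed to expected CpG was 0.113 in members and 0.788 in the others. Other genes that lie inside the receptor clusters had a median of 13 CpG and 58.7% GC over 48 promoters, so that the low values belonged to the members and not to every gene of the same stretches.

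Motifs were counted on both strands of the same windows. TAATTA, a homeodomain core, was present in 24.4% of the members, in 3.18% of the other chromosome 11 promoters and in 4.99% of all 27326 promoters of the table. TATAAA, the TATA box core, was present in 35.6% of the members, 9.17% of the others and 12.0% of all promoters. CCCNNGGG, an EBF core, was present in 8.15% of the members, 22.0% of the others and 18.5% of all promoters. These letters are favoured or disfavoured by base composition. In the 3546 promoters of other genes whose GC lay between the members' quartiles, 14.6% held TAATTA, 33.1% held TATAAA and 2.51% held CCCNNGGG. Of the 69 members in that same GC range, 14 held TAATTA (20.3%), 25 held TATAAA (36.2%) and 4 held CCCNNGGG (5.80%). For CCCNNGGG the order of members and other promoters was thus the opposite of that over all promoters, on 4 members, and none of these differences was tested. OR52W1 held TAATTA and TATAAA, OR52K2 held TATAAA, and OR51V1 and OR4C46 held none of the 3 motifs. A match describes the letters and is no evidence of a bound factor.

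H3K27Ac peaks were rare at the members in both lists. A window was the gene with 5 kb on both sides, and a peak counted when it shared at least 1 bp with it. In the control list 15 of 168 members had a peak, 8.93% (Wilson 95% interval 5.49 to 14.2), where 78.5% of all protein-coding genes had one. Following SNDX-50469 treatment 7 members had a peak, 4.17% (2.03 to 8.35), where 52.4% of all protein-coding genes had one. Of the other 1129 protein-coding genes of chromosome 11, 914 had a control peak, 81.0% (78.6 to 83.1), and 534 had an SNDX-50469 peak, 47.3% (44.4 to 50.2). The intervals of members and other genes did not overlap in either list. They cover counting error only, and neighbouring genes share peaks. OR52K2, OR52W1 and OR5A2 had a peak in both lists, and 149 members had none in either.

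**Figure D1:**
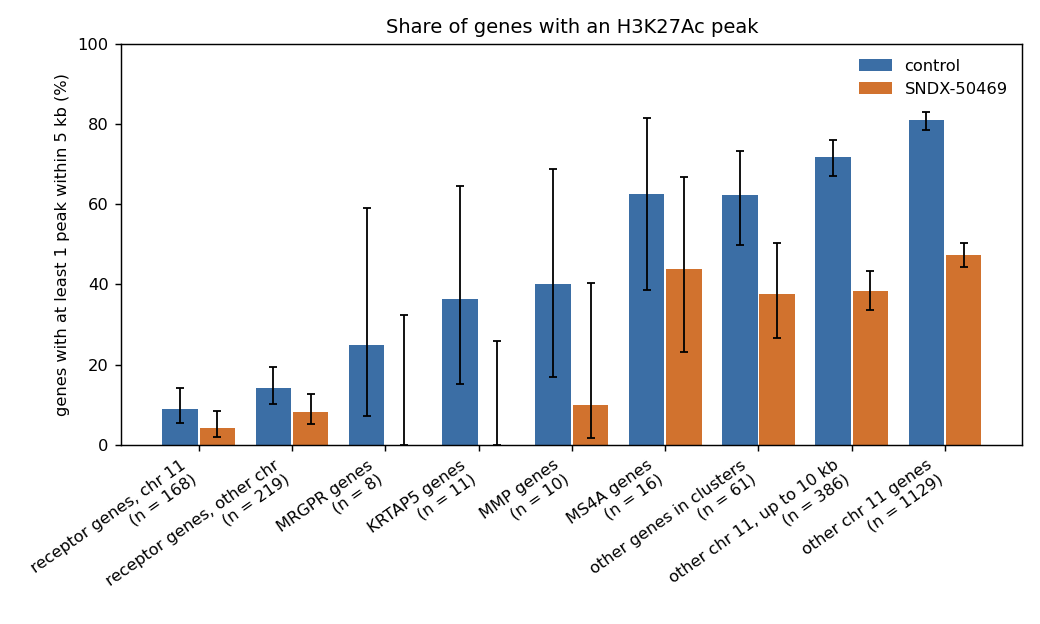
Share of genes, in percent, with at least 1 H3K27Ac peak within 5 kb in the control list (blue) and the SNDX-50469 list (orange), for receptor genes and comparison groups; bars are Wilson 95% intervals, which cover counting error only. The receptor genes of chromosome 11 stand at 8.93% and 4.17%, and the other chromosome 11 genes at 81.0% and 47.3%.

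By length, the merged windows of the members spanned 2.40 Mb. Control peaks covered 27205 bp of them (1.13%) and SNDX-50469 peaks covered 9419 bp (0.392%). The windows of the other chromosome 11 genes were covered over 10.2% in control and 1.02% after treatment. The covered share of the other genes was thus 9.01 times that of the members in control and 2.61 times after SNDX-50469. Peak density was 12.9 per Mb in member windows (31 peaks) against 111 per Mb in the control list, and 3.74 per Mb (9 peaks) against 13.3 per Mb in the SNDX-50469 list. A pair of class I members carried most of the covered length. Without OR52W1 the members were covered over 0.692% in control and 0.0926% after treatment, and without OR52W1 and OR52K2 over 0.374% and 0.0292%. The control ratio of the other genes to the members then rose to 14.7 and 27.3. The ratio of 2.61 after treatment rests on this pair too. Without them the 1.02% of the other genes stands against 0.0926% and 0.0292%.

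The comparison was also made among shorter genes, which matches gene length only loosely. Among genes spanning up to 10 kb, with a median span of 1004 bp in members and 4501 bp in other genes, 11 of 148 members (7.43%) and 277 of 386 other chromosome 11 genes (71.8%) had a control peak. After treatment these numbers were 6 members and 148 other genes (38.3%). The windows of the short other genes were covered over 21.4% in control. When other genes of the members' whole range of spans were taken, with a median of 16627 bp, 837 of 1036 (80.8%) had a control peak. Repeated sequence was looked at in GRCh37, an older build for which a genome was at hand. There 94.4% of 50-base words from the windows of 165 members occurred at a single place in the genome, against 94.6% for 1101 other chromosome 11 genes. These windows include the 5 kb on both sides, which make up most of the length at a short receptor gene. The receptor genes alone were not counted. The lowest member window was that of OR5F1 with 66.2%. Whether reads from near-identical receptor copies were lost in mapping was not tested on the reads.

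The 61 protein-coding genes that are not receptors but lie between the first and last member of a cluster had far more H3K27Ac than the receptors around them. Of these, 38 (62.3%, 49.7 to 73.4) had a control peak and 23 (37.7%) had one after SNDX-50469, and their windows were covered over 6.56% and 0.732%. Their covered share was 5.80 times that of the members in control. The longest control cover among them was at PPFIBP2, a liprin, with 25771 bp. DCHS1, a large protocadherin, had 23781 bp, FHIP1B had 16489 bp, C11orf42 had 14837 bp, and TAF10, a subunit of the TFIID complex, had 14703 bp. After SNDX-50469 these 5 genes had 2430, 2164, 0, 2998 and 420 bp in the same order. The 2998 bp at C11orf42 came from 2 peaks that also lie in the OR52W1 window. The nearer of them was 1432 bp from C11orf42. Part of its control length likewise came from the control peak over OR52W1. The 14 members whose window holds part of such a gene did not stand out, with 1 control peak carrier and 1 SNDX-50469 peak carrier, against 14 and 6 of the 154 others. Within 20 kb of another gene, 3 of 26 members had a control peak, and farther away 12 of 142. By length the nearer members were covered over 2.49% in control, against 0.747% farther away. After treatment these shares were 1.48% and 0.105%. Most of the length at the nearer members was at OR52W1, which lies 5371 bp from C11orf42 and is not among the 14.

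By the share of genes with a control peak, receptor genes of other chromosomes came nearest to the members among the sets compared. By the same symbol rule there were 219, of which 31 (14.2%, 10.2 to 19.4) had a control peak and 18 (8.22%) an SNDX-50469 peak. Their windows were covered over 1.70% in control and 0.201% after treatment. The intervals of both receptor sets overlapped in control, and the difference itself was not tested. Other families of chromosome 11 that are restricted to certain tissues lay between the receptors and the remaining genes in the control list. A control peak was present at 2 of 8 MRGPR genes (several of them itch and pain receptors of sensory neurons), 4 of 11 KRTAP5 genes (hair keratin-associated proteins) and 4 of 10 MMP genes (matrix metalloproteinases). Of the 16 MS4A genes, a family with several members used by immune cells, 10 had a control peak and 7 an SNDX-50469 peak. After treatment no MRGPR or KRTAP5 gene and 1 MMP gene, MMP26, had a peak.

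The members stood in 7 clusters when neighbours up to 1 Mb apart were joined. The largest, from OR52B4 to OR10A3 (chr11:4367263-7941708), held 67 members, among them all 55 class I genes, and 43 other genes. It had 164 control peaks, of which 19 touched a member window, and 37 SNDX-50469 peaks, of which 6 did. Peaks were found at 8 of its members in control and 3 after treatment. Within it, a stretch of 745 kb with no control peak held 23 members. The clusters from OR9Q1 to OR10V1 (21 members, chr11:58023881-59713845) and from OR6X1 to OR8A1 (22 members, chr11:123753580-124571374) had 118 and 41 control peaks and 23 and 2 SNDX-50469 peaks. Control peaks were present at 3 and 4 of their members, and SNDX-50469 peaks at 3 and 1.

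The remaining clusters were bare. The cluster from OR4C46 to OR5AK2 (chr11:54603069-56989843), on the long arm beside the centromere, held 48 members and only 2 other genes, TRIM48 and TRIM51. It had no control peak over its 2.39 Mb and a single SNDX-50469 peak of 107 bp, which was not within 5 kb of a member. These 48 members lay in the longest stretch of chromosome 11 without a control peak, 7077 kb (chr11:50078062-57154965). That stretch also holds the centromere, where little sequence can be mapped, and its length is therefore not a measure of the receptors alone. The 7 members from OR4B1 to OR4A47 had no control peak between them and 1 SNDX-50469 peak, which was outside every member window. OR4C13 and OR4C12, and the lone OR2AT4, had none in either list.

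**Figure D2:**
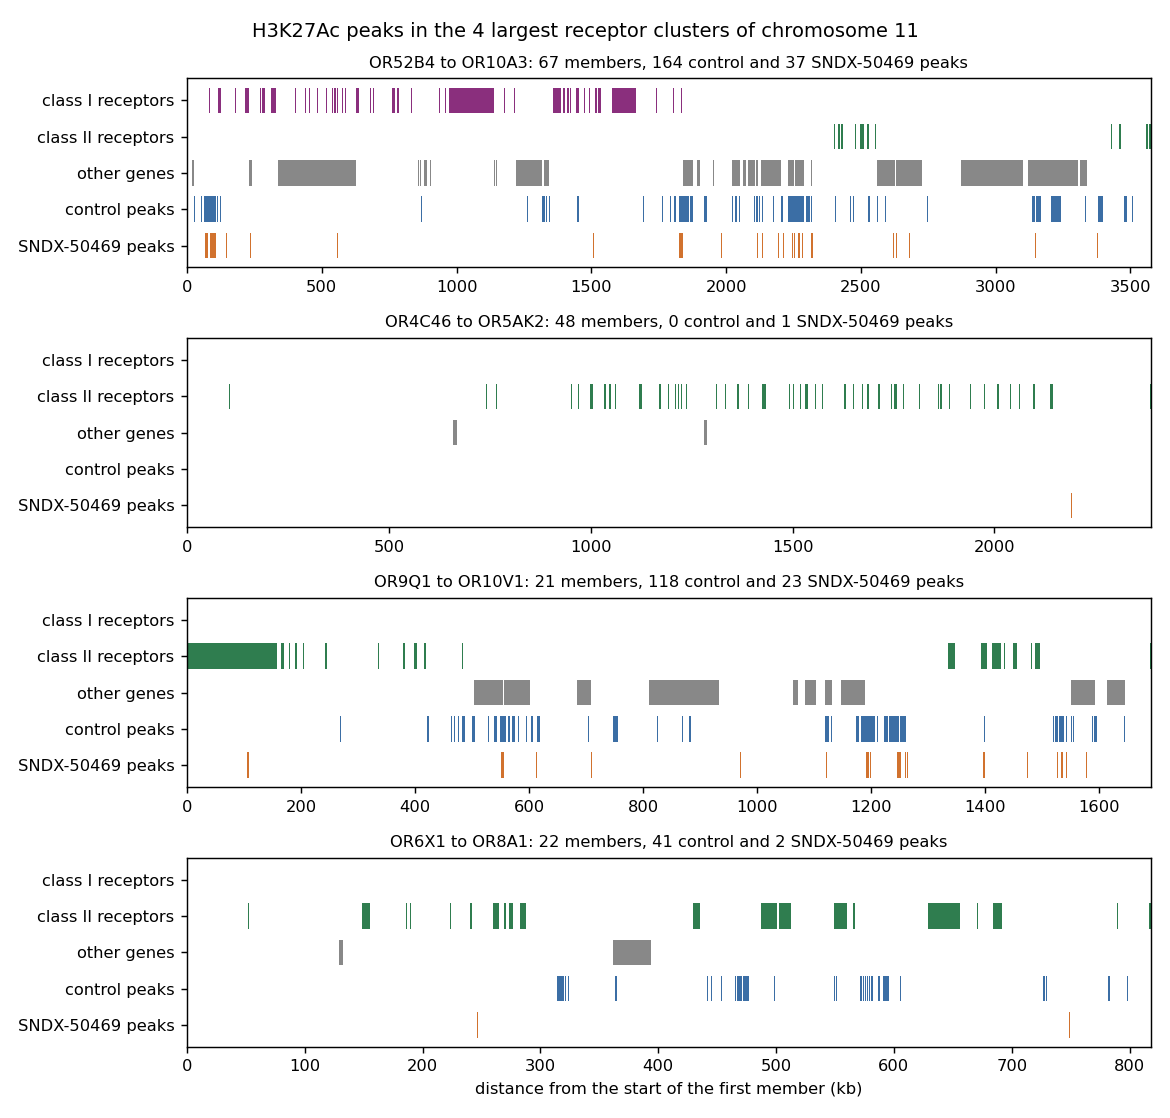
Map of the 4 largest clusters, with distance in kb from the start of the first member on the horizontal axis and rows for class I receptors, class II receptors, other genes, control peaks and SNDX-50469 peaks; narrow features are widened so that they can be seen. The cluster from OR4C46 to OR5AK2 has 0 control peaks over 48 members, and the other 3 clusters have 164, 118 and 41.

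The distance from each member to the nearest peak showed the same. From the gene body to the nearest control peak the median was 97.2 kb, with quartiles of 31.7 and 549 kb and a maximum of 2551 kb at OR4C46. A control peak was over 100 kb away for 83 members (49.4%), against 38 of the other chromosome 11 genes (3.37%), 7 of the 61 other genes inside the clusters (11.5%) and 87 of the 219 receptor genes elsewhere (39.7%). The median was 0 kb for the other chromosome 11 genes and 62.7 kb for the receptor genes elsewhere. After SNDX-50469 the members' median was 121 kb, and 93 (55.4%) lay over 100 kb from a peak. A peak lay over the gene body itself at 9 members in control (5.36%) and 3 after treatment (1.79%). Among the other chromosome 11 genes this held for 854 (75.6%) and 433 (38.4%).

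**Figure D3:**
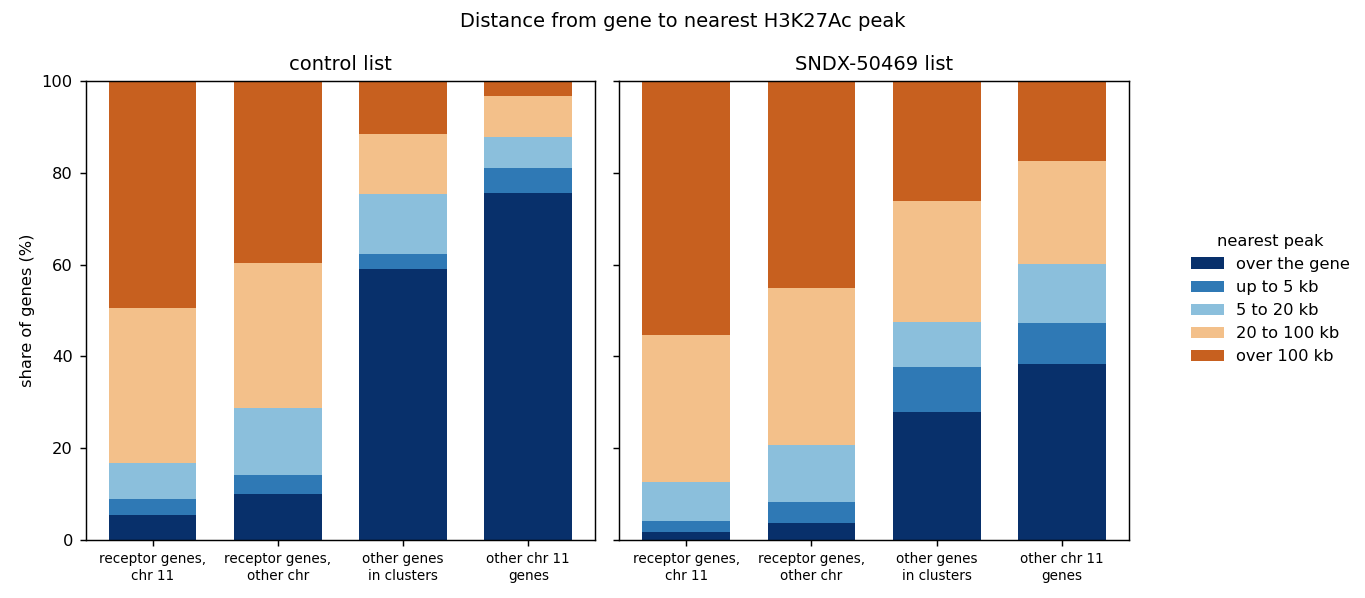
Share of genes, in percent, by the distance from the gene to the nearest peak of the control list (left) and the SNDX-50469 list (right), in 5 ranges from over the gene to over 100 kb. The range over 100 kb holds 49.4% of the chromosome 11 receptor genes in control and 3.37% of the other chromosome 11 genes.

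By family the counts were small, beside 15 of 168 members (8.93%) with a control peak and 7 (4.17%) with an SNDX-50469 peak over all. None of the 24 OR4 members had a peak in either list, and neither had the 7 OR56, 5 OR6 and 2 OR1 members. Most OR4 members stand in the clusters from OR4B1 to OR4A47, OR4C13 to OR4C12 and OR4C46 to OR5AK2. No member of any family had a peak there, so family and position cannot be told apart for them. The 23 OR51 members had no control peak and 1 SNDX-50469 peak, at OR51G1. Among the 25 OR52 members, OR52K2, OR52K1, OR52N2, OR52B2 and OR52W1 had a control peak, and OR52K2 and OR52W1 had one after treatment. OR2AG2, OR2D2 and OR2D3 made up 3 of the 5 OR2 members, with none after treatment. The OR8 family had a control peak at OR8G1, OR8G5, OR8D1 and OR8D2 (4 of 22) and the OR5 family at OR5B12, OR5B21 and OR5A2 (3 of 34). Of the 16 OR10 members only OR10G6 had a peak, in the SNDX-50469 list. The members with a peak are neighbours in several cases, so these counts are not independent. By class, 5 of 55 class I and 10 of 113 class II members had a control peak, with 2.65% and 0.316% of the windows covered. After SNDX-50469 the counts were 3 and 4, with 1.05% and 0.0373% covered. The class I values rest on OR52W1 and OR52K2. Without them the other 53 class I members were covered over 0.484% in control and 0.0136% after treatment, the latter below class II.

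OR52W1, a class I receptor gene of 963 bp (chr11:6199224-6200186), had the most H3K27Ac of all members. In the control list a peak of 11316 bp (chr11:6193516-6204831) ran over the whole gene, with a fold over background of 7.62 and a −log10 q of 10.8. By fold it ranked 1402 among the 245875 peaks of its list. A second control peak of 7143 bp reached the last 30 bp of the window and overlapped C11orf42, the nearest gene that is not a receptor, 5371 bp from OR52W1. In the SNDX-50469 list 4 peaks lay in the window, the widest of 6419 bp (chr11:6196773-6203191) with a fold of 4.52 and a −log10 q of 3.0, rank 3622 among 54061. The covered length was 10638 bp in control and 7203 bp after treatment, all of it inside the control peak, so that 67.7% was kept. The folds are each relative to the background of their own library and are not compared between lists.

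OR52K2, a class I gene of 1067 bp (chr11:4449295-4450361), came next. It had 6 control peaks covering 7662 bp, and the widest, 7510 bp (chr11:4451930-4459439) with a fold of 4.87 and a −log10 q of 4.87, began 1568 bp downstream of the gene. A control peak of 1668 bp reached over the gene start. After SNDX-50469 a single peak of 5406 bp (chr11:4453841-4459246) was left, wholly within the widest control peak and 3479 bp from the gene. It covered 1521 bp of the window, 19.9% of the control length. The nearest gene that is not a receptor, TRIM21, lay 55593 bp away. The next member, OR52K1, had 270 bp under 2 small control peaks and none after treatment.

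The other class I members with a control peak were OR52N2 and OR52B2. OR52N2 had 3452 bp under 3 peaks inside the gene, the widest of 2314 bp, and 0 bp after treatment. OR52B2 had 238 bp upstream of the gene and 0 bp after treatment. In class II, covered lengths in control were 1498 bp at OR2D2, 1207 bp at OR5B21, 842 bp at OR5B12, 566 bp at OR8D1 and 425 bp at OR2D3, each with 0 bp after SNDX-50469. The peak at OR2D3 lay 4508 bp downstream of the gene and over ZNF215, a gene that is not a receptor. The remaining carriers were smaller still. OR8G1 and OR8G5 shared a single peak of 91 bp, OR2AG2 had 80 bp and OR8D2 had 44 bp. OR5A2 had 192 bp in control and 145 bp after treatment at different places within the gene, with no position in common.

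Of the SNDX-50469 peaks at members, 3 lay where no control peak was within 5 kb of the member. One of 348 bp lay inside OR9Q1 and 4368 bp upstream of OR9I1. OR51G1 had 111 bp, in a window that also holds MMP26, and OR10G6 had 91 bp at the edge of its window. The widest of these was narrower than 1 kb, and their −log10 q ran from 1.74 (OR51G1) to 2.11 (OR10G6).

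**Figure D4:**
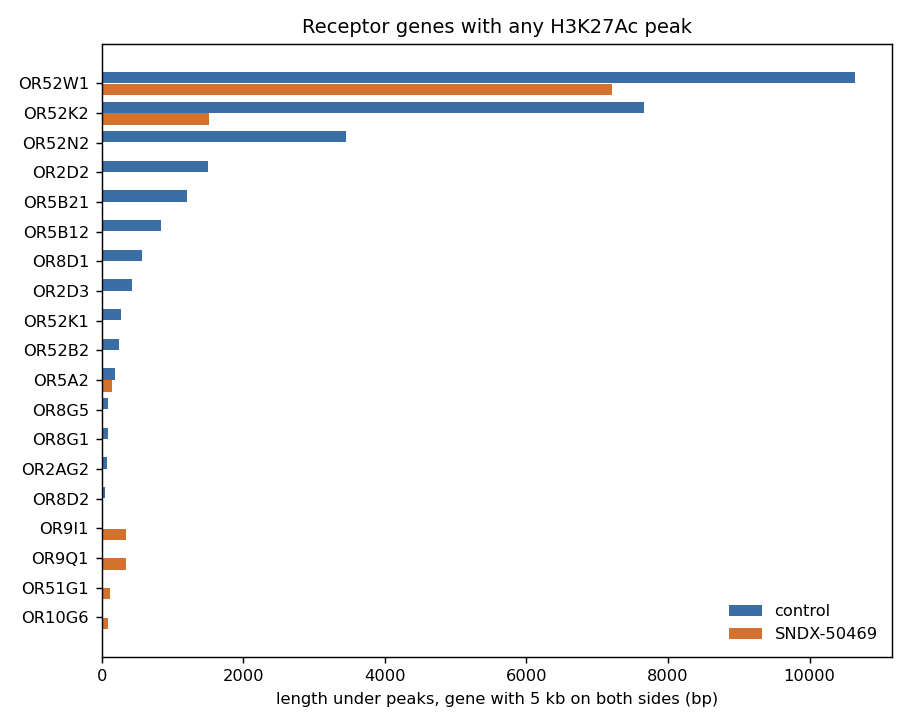
Length in bp under H3K27Ac peaks in the window of each of the 19 members with any peak, control in blue and SNDX-50469 in orange, 1 library each and hence no error bar. OR52W1 (10638 and 7203 bp) and OR52K2 (7662 and 1521 bp) stand above the rest, and 4 members have a bar in the SNDX-50469 list alone.

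Following SNDX-50469 treatment the covered length was shorter at 15 of the 15 members with a control peak. Among all protein-coding genes with a control peak it was shorter at 98.1%, so these members did as nearly every gene with a control peak did. Both counts take only genes with a control peak, which by itself favours a shorter length after treatment. They leave out OR9Q1, OR9I1, OR51G1 and OR10G6, which had an SNDX-50469 peak alone. Of the length covered at members in control, 8724 bp (32.1%) was also covered after treatment, all of it at OR52W1 and OR52K2. The other 13 members kept none. The kept share was 9.39% at the other chromosome 11 genes and 9.95% at the other genes inside the clusters. The weakest peaks of the 2 lists differed in strength, with a smallest −log10 p of 2.68 in control and 3.93 after SNDX-50469. When the latter was applied to both lists, the share of members with a peak was 2.98% in control and 4.17% after treatment, the opposite order, while the covered share was 0.638% and 0.392%. The number of members with a peak is therefore not shown to fall with treatment. Under the same limit the other chromosome 11 genes kept their order. Of them, 64.4% had a peak in control and 47.3% after treatment, with 6.14% and 1.02% of the windows covered.

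The peaks at members had a median width and fold near those of the other peaks of chromosome 11. Peaks over 5 kb made up a larger share of them, on 3 control and 2 SNDX-50469 peaks, and a wide peak touches a window more readily. In control the 31 peaks ranged from 80 to 11316 bp with a median of 325 bp, against 347 bp for the other 10257. Over 1 kb were 6 of them (19.4%, against 20.5%), and over 5 kb were 3 (9.68%, against 3.06%), at OR52W1 and OR52K2. Of these 3, the peak of 7143 bp reached the OR52W1 window by only 30 bp. The median fold was 2.92 against 2.96, and 6 of the 31 peaks stood at the lowest fold of the whole list, as did 1686 of the other 10257. A −log10 q of at least 2 was reached by 8 peaks (25.8%, against 26.2%) and of at least 5 by 1 (3.23%, against 4.25%), at OR52W1. In the SNDX-50469 list the 9 peaks ranged from 111 to 6419 bp with a median of 348 bp against 344 bp for the others. Over 5 kb were 2 of them (22.2%, against 1.18%), again at OR52W1 and OR52K2. A −log10 q of at least 2 was reached by 2 (22.2%, against 35.7%), and none reached 5, against 3.55% of the others. At a −log10 q of at least 2, OR52K2, OR52N2, OR52W1, OR2D3 and OR8D1 still had a control peak, and OR52W1 and OR10G6 had an SNDX-50469 peak. These were 2.98% and 1.19% of the members, against 68.0% and 28.1% of the other chromosome 11 genes at the same limit.

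**Figure D5:**
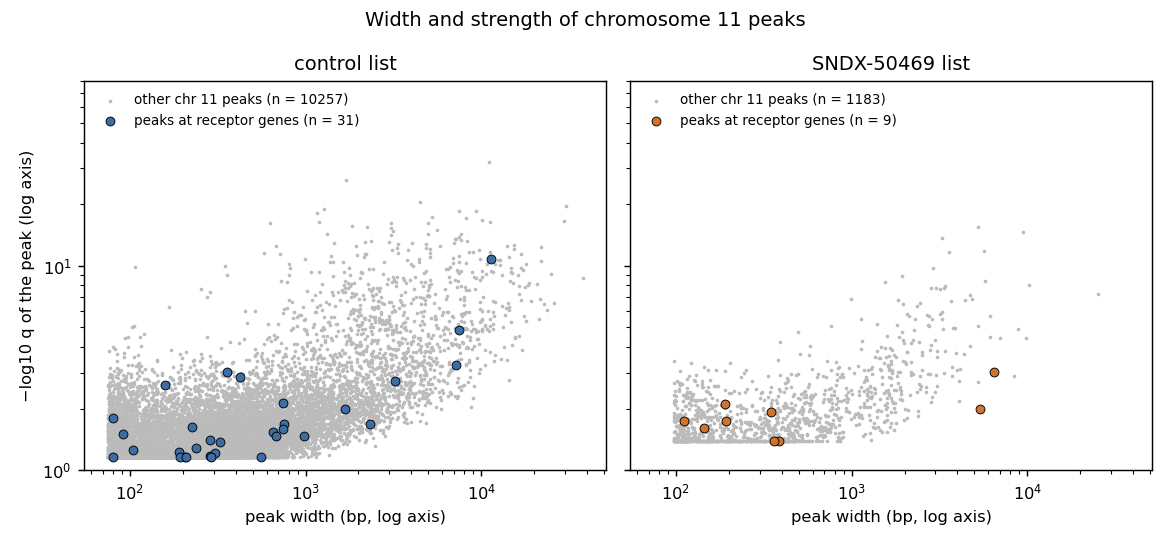
Width in bp (horizontal, log axis) and −log10 q (vertical, log axis) of every chromosome 11 peak in the control list (left) and the SNDX-50469 list (right), with peaks in receptor gene windows as large points. Most receptor peaks sit at the low end among the grey points, and the peak of 11316 bp at OR52W1 stands apart with a −log10 q of 10.8.

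The beta-globin genes, which are used in red cells, lie inside the largest cluster (chr11:5225464-5269945) between receptors. Their flanking members OR52A1, OR51V1, OR51B4 and OR51B2 had no peak in either list, with the nearest control peaks 80.6, 34.6, 64.9 and 87.3 kb away. Of the globin genes, HBD had 2 control peaks over 293 bp within 5 kb, HBB, HBG1, HBG2 and HBE1 had none, and no globin gene had an SNDX-50469 peak. OR51B5, the longest member (165335 bp, chr11:5340318-5505652), also had none in either list. The check of the cell type gave a control peak at 10 of 10 myeloid markers (9 after treatment, all but ITGAM), 1 of 4 erythroid markers (0 after), 3 of 3 B cell markers (2 after) and 2 of 2 T cell markers (0 after). Of the 4 olfactory neuron markers OMP, CNGA2, GNAL and ADCY3, 3 had a control peak and 1 had one after treatment. Among all protein-coding genes 78.5% and 52.4% had one. Genes of B cells, T cells and olfactory neurons had peaks too, and a peak within 5 kb does not show that a gene is used.

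The machinery that olfactory neurons use with the receptors was partly marked. Of 13 genes of olfactory signalling and receptor transport, 7 had a control peak (53.8%) and 3 an SNDX-50469 peak (23.1%). These shares were below the 78.5% and 52.4% of all protein-coding genes. Their windows were covered over 4.09% in control, against 10.8% for all protein-coding genes. GNAL, the G protein subunit that couples the receptors, spans 196422 bp and had 22087 bp in control and 800 bp after treatment. ADCY3, the adenylyl cyclase of the cascade, spans 101069 bp and had 12832 bp and 0 bp. CNGA4, a channel subunit, had 4005 bp and 0 bp. CNGA2, the main channel subunit, ANO2, the chloride channel, and the receptor transporters RTP1 and RTP2 had no peak in either list. OMP, a marker of mature olfactory neurons, had 188 bp in control. Of 18 genes that act in receptor choice and its heterochromatin, 17 had a control peak (94.4%) and 15 an SNDX-50469 peak (83.3%). These shares were above those of all protein-coding genes, and the difference was not tested. LHX2 was the one with no control peak, with none in the SNDX-50469 list and the nearest control peak 56832 bp away. LDB1, its partner, had 9417 bp in control and 4112 bp after treatment, and KDM1A, a histone demethylase, had 3920 and 701 bp. The EBF genes differed in the direction of covered length. EBF1 had 36767 bp in control and 572 bp after treatment, and EBF3 had 16685 and 0 bp. EBF2 had 2007 and 6595 bp, and EBF4 had 691 and 1489 bp. Only 171 bp at EBF2 and 0 bp at EBF4 were covered in both lists, so the treated peaks lay mostly or wholly at other positions. With 1 library each, a rise at these 2 genes is not shown.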

How the data were processed

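H3K27Ac ChIPmentation of MOLM13 cells gave 1 library per condition. The submitters' processing notes name Trim Galore 0.6.5, Bowtie2 2.3.4.2, Picard 2.9.0, MACS2 2.1.2 and GRCh38 without roles, while the supplementary methods name TopHat2 and hg38. Calling options and the use of an input are not given in the sources used here. The authors deposited 1 broad peak list per library, called separately. The deposited lists give each peak a ratio (fold over background), a −log10 p and a −log10 q, and a score that is 10 times the −log10 q without decimals, apart from 9 control and 2 SNDX-50469 peaks, and was not used. Depth is unknown, since the lists hold no read counts, and each list's values are relative to its own background.

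Genes were placed by RefSeq GRCh38.p14, with strands by symbol from a GENCODE annotation of GRCh37. Windows were the gene with 5 kb on both sides. Overlapping windows were merged for lengths. Python 3.11.15, numpy 2.4.6, pandas 2.3.3 and matplotlib 3.10.9 were used, and the steps were tested on simulated peaks. No test was possible with 1 library per condition. Wilson 95% intervals cover counting error only.

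The members and lists were chosen with earlier results of these data known. Members were named if among the 10 longest covered in either list, at a list's widest member peak or nearest the beta-globin genes, and so were the 5 other genes inside clusters with the longest control cover. The remaining carriers, OR4C46, OR51B5 and OR2AT4, the promoters printed, the CpG and 100 kb marks, the promoters of a set GC range, class I without OR52W1 and OR52K2 and the word count were chosen after seeing the data. Alternatives changed the window, the peak strength, the members and the comparison genes.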

Additional observations from a re-analysis of the deposited data

How the results depend on the processing

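Depth is unknown. No paired analysis was possible because only 1 library stands for each condition, and none could be left out. Each set below gives, in this order, the percent of members with a control peak and with an SNDX-50469 peak, the percent of member windows covered in each, and the ratio of the other chromosome 11 genes to the members in control, which were 8.93, 4.17, 1.13, 0.392 and 9.01 as reported. The gene alone gave 5.36, 1.79, 0.603, 0.143 and 16.0, flanks of 1 kb gave 5.36, 2.38, 0.777, 0.271 and 12.8, and flanks of 20 kb gave 16.7, 12.5, 1.77, 0.358 and 5.59. A −log10 q of at least 2 gave 2.98, 1.19, 0.669, 0.271 and 10.2, and of at least 5 gave 0.595, 0, 0.441, 0 and 6.31. Members with no other gene in the window gave 9.09, 3.90, 1.24, 0.430 and 8.25, and 5 kb on both sides of the 5′ end gave 6.59, 2.99, 1.29, 0.504 and 19.4. Peak midpoints gave 8.33 and 2.98 for the members with a peak, and symbols with further letters added no member. Of the alternatives chosen after seeing the data, leaving out OR52W1 gave 8.38, 3.59, 0.692, 0.0926 and 14.7, and leaving out OR52K2 as well gave 7.83, 3.01, 0.374, 0.0292 and 27.3. Spans up to 10 kb gave 7.43, 4.05, 1.26, 0.519 and 17.0, the SNDX-50469 list's weakest −log10 p applied to both gave 2.98, 4.17, 0.638, 0.392 and 9.63, and other genes inside the clusters as the comparison gave a ratio of 5.80. The ratio stayed above 1 in each alternative that gives one, from 5.59 to 27.3. The control share of members with a peak was below the SNDX-50469 share only with this common limit on −log10 p. The causes of these shifts were not tested, beyond those that the alternatives make by construction.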

Other observations

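A few members were chosen, after the data had been seen, because they are known from outside the nose or for the odorant they bind. OR51E1 and OR51E2, class I receptors described in prostate, had no peak in either list, with the nearest control peak 153988 and 190177 bp away and the nearest SNDX-50469 peak 43598 and 79787 bp away. OR2AT4, a receptor described in skin, had none either, with distances of 45252 and 132803 bp. OR5AN1, a receptor for musk odorants, had none, with distances of 50478 and 49161 bp, and OR5A1, a receptor for the violet odorant beta-ionone, had none, with distances of 14084 and 15448 bp.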
